A study of Mus musculus with 8 samples.

Results

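The genes described here carry clone names in place of gene names, such as 4933411K16Rik, and have symbols that begin with 4921, 4922, 4930, 4931, 4932 or 4933 and end in Rik. They were chosen by symbol and by measured level: probe sets with a single platform symbol of this form were kept where the mean of log2(intensity + 16) over all 8 arrays lay above the 40th percentile of the probe sets that are not controls. Of several probe sets of a gene the one with the highest mean stands for it. The array carried 417 genes of this kind on 521 probe sets, and 249 of them (59.7%) were bright enough to be members, out of 13787 genes measured by the same rule. The other 168 genes lay below the level threshold, which corresponds to an intensity of 63.1, and were not tested. The dimmest members, 4930571B16Rik and 4933433H22Rik, had mean levels equivalent to intensities of 63.8 and 64.1, and the brightest genes left out, 4930525G20Rik and 4931414P19Rik, had 61.5 and 61.3. RNA came from whole testes of mice aged 27 days, 1 mouse per Affymetrix array, with 4 mice titled wild type and 4 titled mutant with genotype Brwd1-/-. The titles of the control mice read wild type, but their genotype entry reads Brwd1+/-, so they may have been heterozygous. The sources used here do not name the strain or the mutant allele, and all mice were untreated. Per the series' design text, spermatids are in mid development at this age, and the question is whether their transcripts differ.

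RIKEN clone names come from large collections of full-length mouse cDNAs, in which the leading digits mark the source library, and the libraries behind these prefixes were made from adult testis. Male germ cells pass from spermatogonia through meiotic spermatocytes to haploid spermatids, and the late stages transcribe many genes that are silent in other organs, long noncoding RNAs among them. Many of these genes were never given a functional name. Brwd1 encodes a chromatin-binding protein with bromodomains and WD repeats. Whole testis is a mixture, so for every result here fewer cells of a type and less RNA per cell cannot be told apart.

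RefSeq (assembly GRCm38.p6) held 229 of the 249 members by gene ID. It lists 143 of them as long noncoding RNAs (lncRNAs), 76 as protein coding and 10 as pseudogenes or other RNAs. The remaining 20 members were left without a class or chromosome; for 17 of these RefSeq gives the same symbol to another gene ID. The 4930 series was the largest with 151 members, followed by 4933 with 64, 4921 with 15, 4931 with 12, 4932 with 6 and 4922 with 1. The median member level corresponded to an intensity of 263, against 572 over all genes tested.

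Every array had been scaled to the same trimmed mean intensity, 500, and array medians ran from 90.7 to 124. Of the targeted gene Brwd1, 4 probe sets passed the level threshold and differed by log2 values between -0.28 and 0.31, with adjusted p of at least 0.918 (limma), so its transcript level did not separate the genotypes. Where these probe sets lie relative to the mutation is not given in those sources. Replicates 3 and 4 of both genotypes stood apart from replicates 1 and 2: summed intensity of the 8 measured epididymis markers was 54582 to 69725 in the former and 544 to 5787 in the latter. Mutant replicate 1 also stood apart among the members, with a median member intensity of 145 against 233, 245 and 259 in mutant replicates 2 to 4 and 281 to 334 in the wild type. In spermatid nuclear markers (Prm1, Prm2, Tnp1, Tnp2 and Hils1) summed intensity was 61126 to 109782 in wild type and 2421 to 20239 in mutant mice, lowest in mutant replicate 1. The 7 acrosome markers differed less, with overlapping sums of 18175 to 26452 in wild-type and 11560 to 20027 in mutant mice. Spermatocyte markers summed to 22759 to 34498 and 21670 to 35343, and Sertoli cell markers to 25085 to 28600 and 27462 to 34805. The part of these differences in the results on the members was not tested.

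Most of the clone-named genes were measured at lower levels in mutant than in wild-type testes. Of the 249 members 175 had a negative and 74 a positive log2 difference (mutant minus wild type), with a median of -0.28 and quartiles of -0.91 and 0.06, against a median of 0.07 over all genes tested. The groups did not overlap in 73 members: the mutants were the 4 lowest mice in 66 (26.5%; 5.26% of all genes) and the 4 highest in 7 (2.81%; 2.53% of all genes). Folds are taken from the difference between genotype means of log2(intensity + 16), so they are not the ratio of the mean intensities printed beside them and can be larger or smaller than it. A fold of at least 2 downward was seen in 54 members and upward in 1, against 572 and 16 of all 13787 genes.

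Adjusted p-values are from limma with Benjamini-Hochberg adjustment over all 13787 genes and a threshold of 0.05. With no block 3 members passed as lower (0.268% of all genes did) and 0 as higher (0.0145% of all genes), while 81 members had an unadjusted p below 0.05 in the lower and 9 in the higher direction, where 960 and 358 of all 13787 genes did. Deviations of same-numbered mice from their genotype means correlated (r = 0.515 to 0.677), so the number was also fitted as a block. Of 8 mice, 3 were closest to their own number, so pairing by number is not established. With this replicate block 37 members were lower, which is 14.9% where 3.12% of all genes were, and 4 were higher, which is 1.61% where 0.326% of all genes were. A block for the split of replicates 1 and 2 from 3 and 4 gave 27 lower members (2.16% of all genes) and 4 higher (0.471%). The 3 members called without a block passed in all 3 fits, 30 members passed with both blocks, and 42 passed in at least 1 fit. The words fell and rose are used here for members that passed with the replicate block. Of these, 11 did not pass with the split as a block.

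Single mice mattered for the counts. Without a block, leaving out wild-type replicate 1, 2 or 3 or mutant replicate 3 left 0 members called by limma, with 85, 76, 71 and 90 members at an unadjusted p below 0.05. In the same omissions 0 of all 13787 genes were called, and 1157, 916, 956 and 1212 of them had an unadjusted p below 0.05. Leaving out mutant replicate 2 left 1 member (27 of all genes), and leaving out mutant replicate 1 gave 14 (185 of all genes). With the split as a block and mutant replicate 1 left out, 48 members were lower (4.01% of all genes were) and 5 higher (0.558%), and 35 of the 37 members that fell were among the 48. Within replicates 3 and 4 alone 2 members were lower (0.189% of all genes were). Within replicates 1 and 2 alone 0% of all genes were called in either direction. There 94 members had an unadjusted p below 0.05, as did 1768 of all 13787 genes.

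The lncRNA 4930463O16Rik on chromosome 10 had the smallest adjusted p of the members. Its intensities were 774, 631, 824 and 910 in wild-type replicates 1 to 4 and 223, 276, 264 and 327 in mutant replicates 1 to 4. The groups lay far apart and mutant replicate 1 was close to the other mutants. The mean intensities were 785 ± 117 and 273 ± 42.7 (SD, n = 4). The fall on the log2(intensity + 16) scale was 2.77-fold (log2 -1.47, SE 0.17; limma adjusted p = 0.0229 with no block and 0.00824 with the replicate block). The log2 difference was -1.44 in the pair of replicates 1 and 2 and -1.51 in the pair of 3 and 4.

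The lncRNA 4930592I03Rik had intensities of 335, 555, 521 and 287 in wild-type and 57.3, 63.8, 98.4 and 131 in mutant mice. The highest mutant, replicate 4, was well below the lowest wild type. Its fall was 4.27-fold (log2 -2.09, SE 0.29; limma adjusted p = 0.0356 with no block and 0.0159 with the replicate block). The protein-coding 4921517D22Rik on chromosome 13 had 260, 440, 314 and 200 in wild-type mice and 7.81, 45.4, 44.9 and 70.6 in mutants. Mutant replicate 1 was by far the dimmest mouse and the groups did not overlap. All mutants but replicate 4 were below the threshold intensity of 63.1. The gene thus entered the test through the wild-type mice, the group where it is high. The log2 difference was -2.55 (SE 0.40), or 5.84-fold, with limma adjusted p = 0.0491 and 0.0159 in the same order, and -2.14 without mutant replicate 1 and with the split as a block.

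The largest fall was that of 4933411K16Rik, a protein-coding gene on chromosome 19 and one of the brighter members. Wild-type intensities were 4399, 6779, 5007 and 2623 and mutant intensities 164, 1307, 634 and 1113. All mutants lay below all wild types, with replicate 1 far below the other mutants. The mean intensities were 4702 ± 1715 and 805 ± 513 (SD, n = 4). The fall on the log2(intensity + 16) scale was 6.91-fold (log2 -2.79, SE 0.59; limma adjusted p = 0.0241 with the replicate block and 0.0927 with none). Without mutant replicate 1 the log2 difference was -2.07 with the split as a block.

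The protein-coding 4930503B20Rik (chromosome 3), which RefSeq also lists as Samd13, had 878, 2377, 1128 and 971 in wild-type and 37.8, 207, 202 and 437 in mutant mice. Its groups did not overlap, and wild-type replicate 2 stood above the other wild types. The fall was 6.71-fold (log2 -2.75; limma adjusted p = 0.0220 with the replicate block, 0.0950 with none), and without mutant replicate 1 the log2 difference was -2.14 with the split as a block. It has other kept probe sets, at log2 -1.28 and -0.21, and neither was called (limma adjusted p = 0.0572 and 0.723 with the replicate block).

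The coding gene 4921507P07Rik on chromosome 6 had 1114, 1908, 1681 and 1099 in wild-type and 63.8, 276, 320 and 419 in mutant mice, a fall of 5.89-fold. The coding gene 4930407I10Rik on chromosome 15 had 620, 1125, 974 and 616 against 35.0, 169, 216 and 225, a fall of 5.41-fold. Both had wild-type replicates 2 and 3 as the highest mice, mutant replicate 1 as the lowest, and no overlap. The limma adjusted p with the replicate block was 0.0165 and 0.0163.

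On chromosome 8 the coding gene 4931428F04Rik, listed in RefSeq also as Kiaa0895l, had 590, 865, 808 and 431 in wild-type and 20.5, 280, 164 and 237 in mutant mice. Its human counterpart encodes an enzyme that removes the terminal tyrosine of alpha-tubulin. The groups did not overlap, the fold was 4.47 downward, and limma's adjusted p was 0.0478 with the replicate block, 0.182 with none and 0.0956 with the split as a block. Without mutant replicate 1 the log2 difference was -1.43 in place of -2.16, with the split as a block. Its other kept probe set went the other way without passing the test, at mean intensities of 67.1 and 81.6 (log2 0.24, limma adjusted p = 0.603 with the replicate block).

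The coding gene 4930571K23Rik on chromosome 7 had 1415, 2190, 1982 and 1114 in wild-type and 92.3, 580, 471 and 622 in mutant mice, a fall of 4.34-fold. The lncRNA 4930406D18Rik on chromosome 3 had 881, 1106, 916 and 592 against 61.8, 275, 202 and 324, a fall of 4.29-fold. Neither overlapped between genotypes, and the limma adjusted p with the replicate block was 0.0323 and 0.0275. With the split as a block 4930571K23Rik did not pass (0.0679), and without mutant replicate 1 its log2 difference in that fit was -1.49 in place of -2.12. In both, mutant replicate 1 was several times dimmer than the other mutants.

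The coding gene 4921539E11Rik on chromosome 4 fell with overlapping groups. Its intensities were 1054, 1900, 2314 and 2027 in wild-type and 171, 300, 774 and 1106 in mutant mice, so mutant replicate 4 was above wild-type replicate 1. It was higher in replicates 3 and 4 than in 1 and 2 in both genotypes (log2 1.28, limma adjusted p = 0.0109). The genotype difference was log2 -1.89, with limma adjusted p = 0.0214 with the replicate block and 0.189 with none.

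The lncRNA 4933417D19Rik on chromosome 8 had 514, 763, 682 and 276 in wild-type and 86.0, 254, 141 and 169 in mutant mice, a fall of 3.20-fold (limma adjusted p = 0.0230 with the replicate block). The transcribed pseudogene 4930448K20Rik on chromosome 4 had 305, 571, 403 and 245 against 31.0, 167, 105 and 192, a fall of 3.12-fold (0.0478, and 0.102 with the split as a block). Groups did not overlap in either, but wild-type replicate 4 lay close to the highest mutant. The pseudogene's probe set is of a kind that can match several transcripts, so signal of near-identical copies may be mixed in its value.

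**Figure D1:**
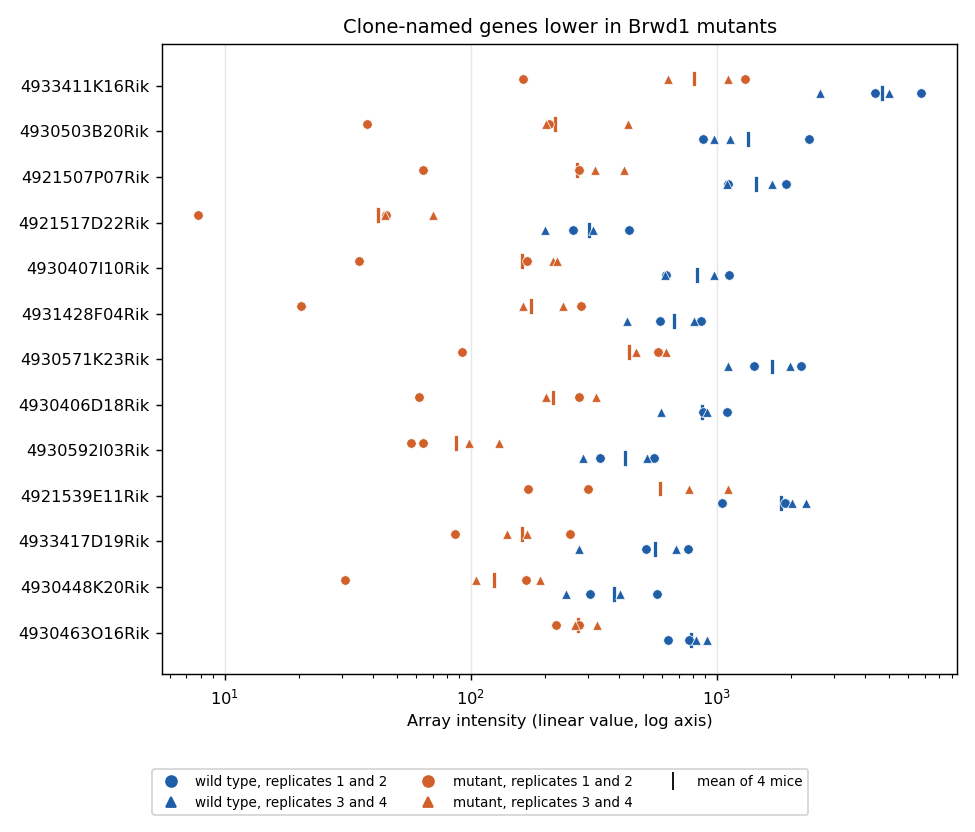
Array intensity (log axis) in each of 8 mice for the clone-named genes with the largest falls, wild type in blue and mutant in orange, circles for replicates 1 and 2, triangles for replicates 3 and 4, bars for means of 4 mice. Mutant points lie left of wild-type points in every gene but 4921539E11Rik, and the lowest mutant point of 4933411K16Rik, at 164, is replicate 1.

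Across the 37 members that fell, log2 differences ran from -2.79 to -0.70 (1.62-fold to 6.91-fold) and 30 were at least 2-fold. Replicate-block adjusted p ran from 0.00824 to 0.0496 and those without a block from 0.0229 to 0.391. The groups did not overlap in 33 of the 37, and all 37 were negative in both pairs of replicates, 1 with 2 and 3 with 4. Both counts are favoured by the choice of these members on the same values, so they are not separate support. They comprised 16 coding genes, 17 lncRNAs, 3 pseudogenes and 1 gene without a class, on 17 chromosomes with at most 4 on any. Their median intensity was 375, 555, 521 and 408 in wild-type replicates 1 to 4 and 70.0, 183, 179 and 237 in mutant replicates 1 to 4. Mutant replicate 1 was the lowest of all 8 mice in 30 of the 37 (81.1%), in 116 of all 249 members (46.6%) and in 1978 of all genes tested (14.3%).

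Some smaller falls are named here after their values were seen. The coding gene 4931417E11Rik on chromosome 6 had 3802, 3751, 3112 and 2787 in wild-type and 2439, 2402, 1781 and 1687 in mutant mice. Within each genotype replicates 3 and 4 were below 1 and 2, and the groups did not overlap. It fell 1.62-fold (limma adjusted p = 0.0159 with the replicate block, 0.00774 with the split as a block and 0.130 with none). The coding gene 4933402N03Rik on chromosome 7 had mean intensities of 140 ± 45.9 and 39.5 ± 4.63 (SD, n = 4) and a log2 difference of -1.44. It passed the level threshold through the wild-type mice alone, since all 4 mutants were below the intensity of 63.1. The lncRNA 4933402C06Rik on the same chromosome had 242 ± 66.0 and 116 ± 6.0 (SD, n = 4) and a log2 difference of -0.93.

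A further 24 members were at least 2-fold lower in the mutant but did not pass with the replicate block, with adjusted p of 0.0513 to 0.196. They included 4933433H22Rik at the level threshold, with 179, 164, 90.7 and 91.3 in wild-type and 9.33, 32.9, 21.7 and 74.8 in mutant mice (log2 -1.64, limma adjusted p = 0.0736). All its mutants but replicate 4 were below the threshold intensity of 63.1. This gene thus entered the test through the wild-type mice, the group where it is high. Leaving out mutant replicate 1, with the split as a block, added 13 lower members that the replicate block had not called. Of these 8 were coding, and 12 had no overlap between genotypes over all 8 mice. All mutants lay below all wild types in 5.26% of all genes. The count of 12 is favoured by the choice of these members on mostly the same values, so it is not separate support.

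The 4 members that rose were 3 lncRNAs and 1 gene without a class, with mean levels equivalent to intensities of 66.9 to 606. The lncRNA 4932441J04Rik on chromosome 5 had 21.8, 30.2, 31.7 and 52.2 in wild-type and 113, 114, 179 and 104 in mutant mice. The groups lay apart and mutant replicate 3 was the highest. It rose 2.88-fold (log2 1.53, SE 0.24; limma adjusted p = 0.0229 with the replicate block and 0.0514 with none), and its mean level was at percentile 1.14 of the genes tested. All 4 wild-type values were below the threshold intensity of 63.1, so the gene entered the test through the mutants, the group where it is high. The gene that 4932441J04Rik overlaps, Pcdh7, read 68.7 and 68.5 on average.

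The gene 4930555G07Rik had 209, 215, 193 and 245 in wild-type and 347, 317, 457 and 428 in mutant mice, a rise of 1.73-fold. The lncRNA 4930520O04Rik on chromosome 9 had 490, 499, 439 and 426 against 946, 860, 806 and 601, a rise of 1.69-fold. The lncRNA 4930442E04Rik on chromosome 19 had 388, 460, 389 and 315 against 613, 655, 601 and 603, a rise of 1.58-fold. In all 3 the lowest mutant was above the highest wild type, and mutant replicate 1 was the highest mutant only for 4930520O04Rik. Limma adjusted p with the replicate block was 0.0349, 0.0255 and 0.0349.

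**Figure D2:**
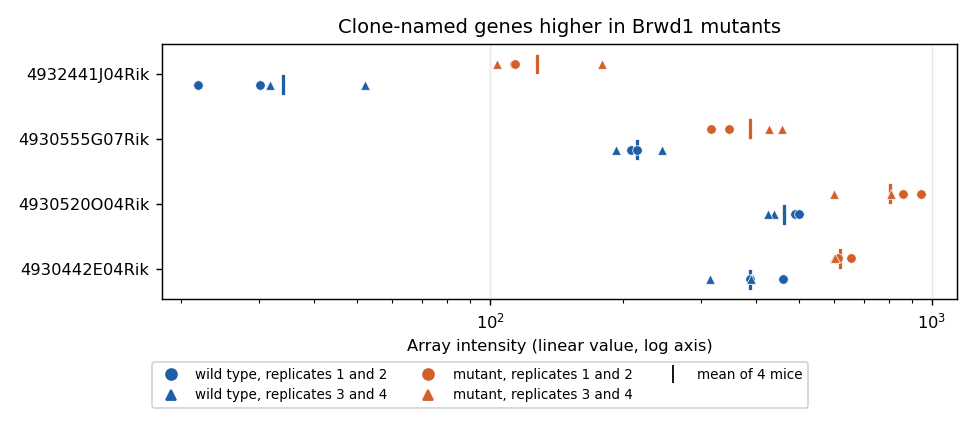
Array intensity (log axis) in each of 8 mice for the 4 clone-named genes that rose, with colours and symbols for genotype and replicates as in the legend and bars for means of 4 mice. All mutant points lie right of all wild-type points; 4932441J04Rik has the widest gap, at 2.88-fold.

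Falls and rises were also counted by class. With the replicate block 16 of the 76 coding members fell (21.1%) and 0 rose at the adjusted threshold (limma; 3 had an unadjusted p below 0.05 in that direction), with a median log2 difference of -0.48. Of the 143 lncRNAs 17 fell (11.9%) and 3 rose (2.10%), with a median of -0.26, and of the 10 other matched members 3 fell. Among all coding genes tested 379 of 13062 were lower (2.90%, median 0.07), and among lncRNAs that are not members 23 of 421 were (5.46%, median 0.01). The shares higher were 0.283% and 0.713%. The coding members were also brighter, with a median level equivalent to an intensity of 485 against 194 for the lncRNAs. The difference between the classes was not tested.

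Divided by level into 4 classes that hold equal numbers of all genes, from dim to bright, 14 of 109, 16 of 80, 5 of 38 and 2 of 22 members fell, with median log2 differences of -0.38, -0.31, -0.18 and 0.03. Of all genes in these classes 2.03%, 3.60%, 3.95% and 2.90% were lower. By series, 5 of 15 members of the 4921 series fell (median -0.54), 4 of 12 of the 4931 series (-0.40), 20 of 151 of the 4930 series (-0.28) and 8 of 64 of the 4933 series (-0.26). In the 4932 series 1 of 6 rose and in the 4922 series the sole member had a log2 difference of 0.14. Of all genes tested 3.12% were lower and 0.326% higher. On the X chromosome 1 of 13 members fell, the pseudogene 4933400A11Rik, and on autosomes 35 of 216 did, where 3.67% of all X-linked and 3.10% of all autosomal genes tested were lower. A count of 1 among 13 is too small to compare.

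**Figure D3:**
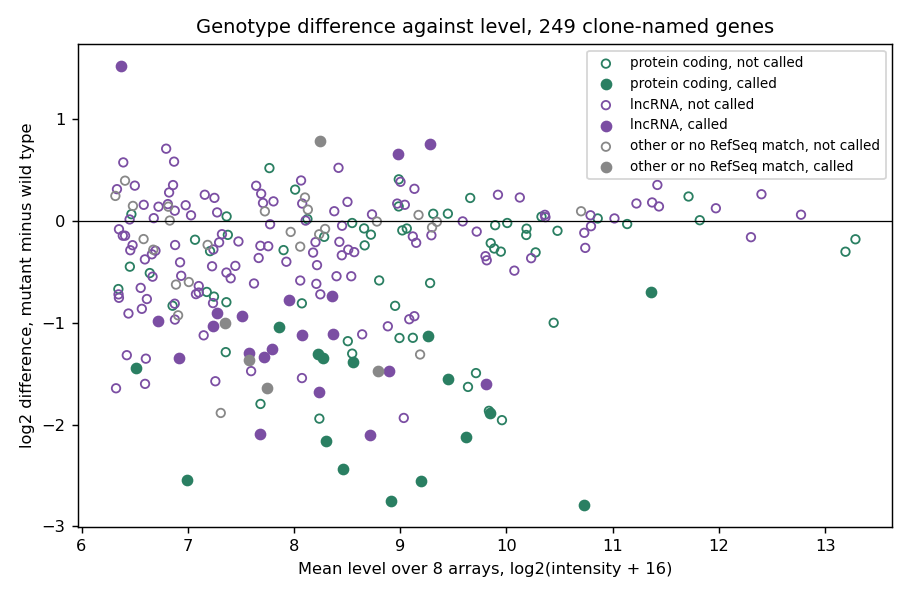
Genotype difference (log2, mutant minus wild type) against mean level over 8 arrays (log2 of intensity + 16) for the 249 clone-named genes, filled points called with the replicate block, colours for the RefSeq class. The 37 falls reach from -2.79 to -0.70 and occur in all 4 level classes. In the brightest class 2 of 22 members fell (9.09%, where 2.90% of all genes in it were lower), among them the largest fall, 4933411K16Rik.

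Genes of other clone series were counted in the same way. Of 156 genes of the 1700 series, also from testis libraries, 34 were lower (21.8%) and 1 higher with the replicate block, with a median log2 difference of -0.44. Of 276 genes with other Rik symbols 5 were lower (1.81%) and 3 higher, with a median of 0.08. These are counts beside each other and the differences between the sets were not tested.

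The median genotype difference was negative in both pairs of replicates. The median member difference was -0.42 within replicates 1 and 2, the pair that holds mutant replicate 1. It was -0.16 within replicates 3 and 4. Over all genes these medians were 0.09 and 0.03. With the split as a block and mutant replicate 1 left out the member median was -0.19 against 0.04 over all genes. For 4933411K16Rik the difference was -3.49 in the pair of 1 and 2 and -2.09 in that of 3 and 4, and for 4930407I10Rik -3.13 and -1.74.

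**Figure D4:**
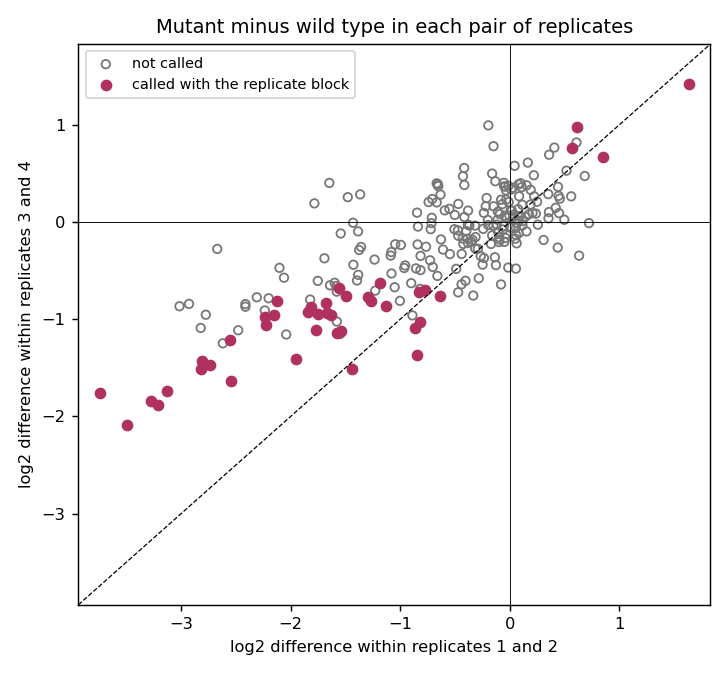
Genotype difference (log2) of the 249 clone-named genes within replicates 3 and 4 against that within replicates 1 and 2, filled points called with the replicate block, dashed line for equality. All 37 falls lie in the lower left corner, which their choice on the same values favours, and for 4933411K16Rik the values are -3.49 and -2.09.

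Promoter sequences of 5 members that fell are printed because they show how different the starts of these genes are. Each is RefSeq's GRCm38.p6 window of 300 bases, 250 before and 50 after the start site, read on the gene's strand. Capitals mark the cAMP response element TGACGTCA, its shorter form TGACG, and the MYB core CAGTTG, on either strand; TGACG also lies inside TGACGTCA. The windows are chr19:42051978-42052277 (plus strand), chr6:50596541-50596840 (minus), chr13:59694052-59694351 (minus), chr8:123234841-123235140 (plus) and chr10:84488043-84488342 (plus), in the order printed.
4933411K16Rik: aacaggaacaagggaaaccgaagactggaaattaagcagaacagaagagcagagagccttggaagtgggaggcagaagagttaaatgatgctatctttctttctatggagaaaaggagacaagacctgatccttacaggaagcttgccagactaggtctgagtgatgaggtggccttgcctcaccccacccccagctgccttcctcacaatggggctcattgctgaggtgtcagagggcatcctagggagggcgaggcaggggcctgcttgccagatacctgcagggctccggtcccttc
4921507P07Rik: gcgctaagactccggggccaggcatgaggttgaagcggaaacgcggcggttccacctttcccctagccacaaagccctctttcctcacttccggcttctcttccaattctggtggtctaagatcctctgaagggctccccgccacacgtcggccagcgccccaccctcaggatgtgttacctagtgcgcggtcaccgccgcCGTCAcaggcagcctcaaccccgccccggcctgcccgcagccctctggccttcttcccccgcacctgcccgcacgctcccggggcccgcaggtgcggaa
4921517D22Rik: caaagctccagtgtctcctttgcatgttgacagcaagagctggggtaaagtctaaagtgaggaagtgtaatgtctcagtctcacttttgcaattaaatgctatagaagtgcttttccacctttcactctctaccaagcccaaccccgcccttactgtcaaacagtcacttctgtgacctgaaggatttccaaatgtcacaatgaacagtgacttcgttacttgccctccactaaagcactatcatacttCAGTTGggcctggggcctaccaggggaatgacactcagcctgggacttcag
4933417D19Rik: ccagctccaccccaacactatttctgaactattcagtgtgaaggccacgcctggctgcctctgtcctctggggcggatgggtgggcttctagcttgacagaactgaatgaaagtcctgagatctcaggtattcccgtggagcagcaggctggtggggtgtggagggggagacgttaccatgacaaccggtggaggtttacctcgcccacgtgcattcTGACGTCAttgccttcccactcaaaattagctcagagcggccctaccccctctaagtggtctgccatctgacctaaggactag
4930463O16Rik: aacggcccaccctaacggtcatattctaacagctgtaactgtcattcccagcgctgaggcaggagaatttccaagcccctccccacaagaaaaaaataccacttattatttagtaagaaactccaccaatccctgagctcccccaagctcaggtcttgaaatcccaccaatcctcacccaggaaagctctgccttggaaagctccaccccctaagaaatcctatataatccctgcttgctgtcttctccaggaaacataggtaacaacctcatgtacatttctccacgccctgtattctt

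The window of 4933411K16Rik, the largest fall, holds none of the motifs searched (those above, TATAAA and CCAAT, both strands). In 4921507P07Rik a TGACG on the opposite strand lies 49 bases before the start. In 4921517D22Rik a CAGTTG lies 1 base before it, and 4933417D19Rik has the whole TGACGTCA 33 bases before it. The lncRNA 4930463O16Rik has CCAAT at 125 and 84 bases before the start, not capitalised.

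Windows were listed for 184 members, 202 in all. CAGTTG was in 23.3% of member windows, 23.3% of the 30 windows of members that fell and 22.5% of the 169 windows of members not called, against 11.2% of the windows of all genes tested and 13.7% of all 32851 windows. TGACG was in 17.8% of member windows and 3 of the 30 that fell, against 29.1% of windows of genes tested. TGACGTCA was in 3.47% and 3.33%, against 2.84%. TATAAA was in 8.42% of member windows and 3 of the 30 against 7.62%, and CCAAT in 38.6% and 43.3% against 37.2%. These shares are descriptions of letters in the windows.

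Many of these genes lie inside or beside named genes. RefSeq has another gene overlapping 118 of the 229 matched members. Of the 36 matched members that fell, 17 overlap a gene and 25 have one overlapping or within 5 kb. Their 17 measured neighbours had log2 differences from -0.42 to 0.53 with a median of 0.07, and 0 were called lower (limma with the replicate block; 1 had an unadjusted p below 0.05). With 3.12% of all genes called lower, a count of 0 among so few says nothing about neighbours. Hoga1, an enzyme of hydroxyproline breakdown that 4933411K16Rik overlaps, read 157 and 178 (log2 0.18). Zfp516, which 4930592I03Rik overlaps, read 202 and 266 (log2 0.33), and Hnrnpf, an RNA-binding protein gene that 4933440N22Rik overlaps, read 8505 and 8927 (log2 0.07). Beside 4930407I10Rik, the meiosis gene Mei1 had a log2 difference of -0.17.

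Among members not called, 4 of 113 measured neighbours were lower with the replicate block, a share near the 3.12% of all genes. The 4 are given as values only. Akap1, an anchor of protein kinase A, went from 2381 to 627 while 4930556N13Rik, which overlaps it on the opposite strand, had a log2 difference of -0.38. Ccdc54 went from 1024 to 240 while 4930542D17Rik, on its opposite strand, had -0.24. Siah2, a ubiquitin ligase, went from 2674 to 1596 beside 4930593A02Rik (-0.13), and 1700094D03Rik from 1481 to 737 while the overlapping 4933434E20Rik had 0.01.

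A second look at a gene through its other probe sets was possible for 31 members, which had 43 more kept probe sets. Of these 25 had the sign of the gene's main probe set and 18 the opposite. None of the 43 was called (limma with the replicate block; 7 had an unadjusted p below 0.05, 4 of them lower), where 2.12% of all kept probe sets were lower and 0.211% higher. Of the 41 members called with the replicate block 39 had no other kept probe set, so their calls rest on 1 probe set each.

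The 5 brightest members did not pass with the replicate block. The coding gene 4930544G11Rik on chromosome 6 read 10640 ± 1047 in wild-type and 9507 ± 1809 in mutant mice (SD, n = 4; log2 -0.18). The coding gene 4930453N24Rik on chromosome 16 read 10398 ± 965 and 8492 ± 1317 (SD, n = 4; log2 -0.30, limma adjusted p = 0.0914 with the replicate block). The lncRNA 4933406F09Rik on chromosome 14 read 6850 ± 599 and 7158 ± 613, and the lncRNA 4930449C09Rik on chromosome 15 read 5351 ± 702 and 4795 ± 648 (SD, n = 4). The lncRNA 4930403D09Rik on chromosome 11 read 4927 ± 380 and 5924 ± 472 (SD, n = 4; log2 0.26). With the split as a block and mutant replicate 1 left out it was called higher (limma adjusted p = 0.0401; 0.168 with the replicate block).

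The members also varied between replicates 3 and 4 and replicates 1 and 2, in both genotypes. With a term for genotype, 34 members were lower in replicates 3 and 4 (13.7%, where 20.3% of all genes were) and 27 higher (10.8%, where 22.2% of all genes were). Centring each array on its median moved the median difference of all genes from 0.01 to -0.23 and gave 68 lower and 13 higher members (35.1% and 13.9% of all genes), and quantile normalization gave 52 and 18 (24.9% and 19.6%). The signs of the genes named next held under both scalings. Epididymis markers moved with this split, as given above, and their part in it was not tested.

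The coding gene 4932414N04Rik on chromosome 2 had 429, 956, 1766 and 2865 in wild-type and 365, 434, 3102 and 2838 in mutant mice. Replicates 3 and 4 were high and 1 and 2 low in both genotypes, with means of 2643 and 546 (log2 2.32, limma adjusted p = 0.000697). The coding gene 4932438A13Rik on chromosome 3, listed in RefSeq also as Kiaa1109 and known as a large lipid transfer protein, had 379, 783, 1736 and 2083 against 361, 284, 2363 and 2036. Its means were 2054 and 452 (log2 2.24, limma adjusted p = 0.000485). The lncRNA 4933438K21Rik on chromosome 4 had 311, 586, 1233 and 832 against 80.8, 178, 702 and 862 (log2 1.87, limma adjusted p = 0.00275), with mutant replicates 1 and 2 the lowest.

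In the other direction the lncRNA 4930488L21Rik on chromosome 8 had 2163, 1647, 867 and 812 in wild-type and 1128, 1590, 596 and 596 in mutant mice (log2 -1.15, limma adjusted p = 0.000525). No mouse of replicates 3 and 4 reached the lowest of 1 and 2. The RNA gene 4932431P20Rik on chromosome 7 went from a mean of 395 in replicates 1 and 2 to 209 in 3 and 4 (log2 -0.88), and 4933435C09Rik from 187 to 92.5 (log2 -0.87). The other kept probe set of 4932431P20Rik went the other way. It had 66.3, 64.1, 145 and 91.8 in wild-type and 54.5, 92.8, 187 and 162 in mutant mice, so the direction for this gene is unsettled. None of these 6 genes was called between genotypes with the replicate block.

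**Figure D5:**
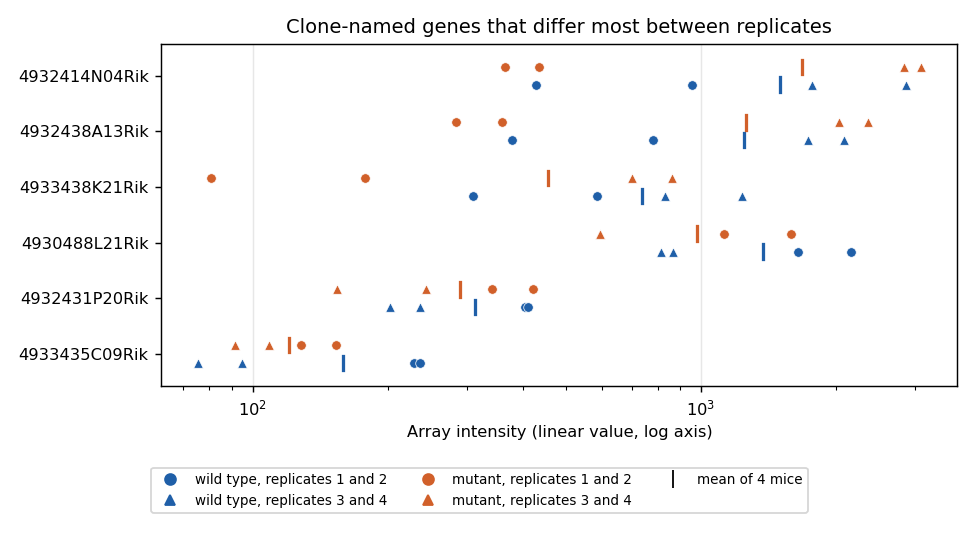
Array intensity (log axis) in each of 8 mice for the 6 clone-named genes that differed most between replicates 3 and 4 (triangles) and replicates 1 and 2 (circles), wild type in blue and mutant in orange, bars for means of 4 mice. Triangles and circles separate in both genotypes, for 4932414N04Rik with means of 2643 and 546.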

How the data were processed

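Biotin-labelled RNA of whole testis was measured on 1 Affymetrix array per mouse, 4 per genotype at 27 days, per the labels. The authors deposited linear intensity values made with GCOS (per the submitters' processing notes), whose version and settings the sources used here do not give. Every deposited array had a mean of 500 after trimming 2% at each end, so differences in distribution shape between arrays remain. No detection calls came with the values, so distance from background is unknown, and the number of arrays limits precision.

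Of 45101 probe sets 64 were AFFX controls. Of the other 45037, 34945 had 1 platform symbol, 932 several and 9160 none. Values were taken as log2(intensity + 16), which understates changes of dim genes; folds are on this scale. The 27022 probe sets above the 40th percentile of mean level gave 13787 genes, each by its brightest probe set. Classes, neighbours and promoters came from RefSeq tables (GRCm38.p6), matched by gene ID; positions are RefSeq's, since the files name no build.

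Genotypes were compared with limma 3.58.1 in R 4.3.3 (lmFit, eBayes with an intensity trend, two-sided, Benjamini-Hochberg over all genes, threshold 0.05); the test was checked on simulated data. Where nothing says how mice were related, p-values measure the spread between these mice. Replicate numbers are shared between genotypes in the labels. Deviations of same-numbered mice from their genotype means correlated in every pair (r = 0.515, 0.677, 0.636 and 0.619). Of 8 mice, 3 were closest to their own number, so pairing by number is not established. Whether these correlations exceed what the split of replicates described in the Results would give was not tested. The block by number was chosen from the data, since the labels state no pairing, and blocked values stand beside the results. Named were the members called without a block, the 12 largest falls and up to 8 largest rises with the replicate block, the 5 brightest, those at the level threshold, the 3 with the largest difference between replicates in each direction, and called members with a probe set of opposite sign. Members, lists and motifs were chosen with earlier results of these data known. Alternatives covered scaling, pseudocount, filter, blocks, eBayes settings, array weights, probe set choice, threshold and single mice. Plots were made with matplotlib 3.10.9.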

Additional observations from a re-analysis of the deposited data

Results flagged for a closer look

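In 2 of the 60 groups of 4 mice examined among the named genes, 1 mouse lay far from the other 3; chance alone gives this in about 1 group in 20. For 4930503B20Rik wild-type replicate 2 was the highest of its group at 2377, with the next at 1128, a gap of 0.833 of the group's range. For 4932441J04Rik mutant replicate 3 was the highest at 179, with the next at 114, a gap of 0.869.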

How the results depend on the processing

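The number of members called between genotypes (3 of 249 with no block) was 41 with the replicate block, 31 with the split of replicates 1 and 2 from 3 and 4 as a block, 50 with array weights, 53 with the split as a block and mutant replicate 1 left out, and 48 with the replicate block and number 1 of both genotypes left out; the last alternative was chosen after seeing the data. It was 5 with median centring, 7 with a pseudocount of 64, 2 with a pseudocount of 1, within replicates 3 and 4, at the 60th percentile filter, with robust eBayes and with the mean of probe sets, and 0 within replicates 1 and 2 and at a threshold of 0.01. Leaving out 1 mouse at a time gave 0 to 14. Over all genes (39 with no block) the counts for the blocks and weights, in the same order, were 475, 363, 697, 630 and 527. They were 43 with median centring, 94 and 23 with pseudocounts of 64 and 1, and 27 within replicates 3 and 4. The 60th percentile filter gave 22, robust eBayes 34 and the mean of probe sets 31. The count was 0 within replicates 1 and 2 and at a threshold of 0.01, and 0 to 185 on leaving out mice. The cause of these shifts was not tested. The members' median log2 difference stayed negative in every alternative, between -0.42 and -0.16. The 61 members called between replicates became 30 at a threshold of 0.01 and 37 to 69 on leaving out mice. Without these changes 20.3% of all genes were lower and 22.2% higher in replicates 3 and 4. All genes were not counted at that threshold or on leaving out mice, so these shifts cannot be compared with theirs.

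Of 745 values of 30 named members under alternatives, 621 kept direction and side of the threshold, 81 newly passed it, 25 no longer did and 18, all of uncalled genotype differences, changed sign. For 4932438A13Rik the turned values were 0.20 within replicates 3 and 4, 0.67 with array weights and 0.0069 with the mean of probe sets, and leaving out a mouse gave -0.76 to 0.24. For 4932414N04Rik they were 0.40 within replicates 3 and 4, 0.91 with array weights and 0.019 with the split as a block and mutant replicate 1 left out, and leaving out a mouse gave -0.63 to 0.38. For 4932431P20Rik the mean of probe sets gave 0.10 and leaving out a mouse -0.33 to 0.12, and for 4933435C09Rik the value within replicates 3 and 4 was 0.20.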
